A study of Homo sapiens with 6 samples.

Results

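The septins of RKO cells were compared between cells carrying a hairpin against TRIM21 and cells carrying a scrambled hairpin. The 9 septin genes described here, SEPTIN2, SEPTIN3, SEPTIN5, SEPTIN6, SEPTIN7, SEPTIN8, SEPTIN9, SEPTIN10 and SEPTIN11, were found by an exact match of the gene symbol and make up 9 of the 28278 rows of the count tables. The set was selected on earlier results of the same comparison, in which SEPTIN2 was among the genes with the smallest p-values. Every difference of these 9 genes between the groups is therefore a description, given with its size, standard error and 95% interval but without a p-value. The other 4 human septin genes, SEPTIN1, SEPTIN4, SEPTIN12 and SEPTIN14, are given beside them.

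RKO is an established human cell line from a poorly differentiated colon carcinoma, and TRIM21 is an E3 ubiquitin ligase and a cytosolic antibody receptor. The shTRIM21 group is 3 libraries of RKO cells with a TRIM21-specific hairpin, and the shControl group is 3 libraries of RKO cells with a scrambled hairpin. Both groups carry a lentiviral integration and were kept in puromycin, added at 5 µg/ml after 36 h of infection. The labels call the libraries biological replicates without naming separate infections, so p-values measure the spread between these libraries, which may be technical, and 1 label field names a mouse tissue although organism, cell line and gene symbols are human. In each arm the labels describe a single kind of hairpin.

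Septins are GTP-binding proteins that join end to end into rods and filaments along membranes, actin and microtubules. They form 4 subgroups named after SEPTIN2, SEPTIN3, SEPTIN6 and SEPTIN7, and members of a subgroup can take each other's place in a rod. In the longer human rod a SEPTIN2-group protein lies at both ends and SEPTIN9, of the SEPTIN3 group, in the middle, with SEPTIN6-group and SEPTIN7 subunits between. In dividing cells septins gather at the cleavage furrow, and in epithelia they are known for roles in polarity and at the base of the primary cilium.

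TRIM21 itself had 299, 271 and 297 counts in the shTRIM21 libraries, against 459, 421 and 343 counts in the shControl libraries. All 3 knockdown libraries were below all 3 control libraries, and TRIM21 fell by 31.3% (log2 fold change -0.54, SE 0.12, adjusted p = 0.0042, edgeR's quasi-likelihood test with Benjamini-Hochberg adjustment over 15131 tested genes). The libraries held between 33499827 and 44466137 counts, and between 27808151 and 29100459 without ribosomal RNA rows. The share of ribosomal RNA was 19.3%, 23.5% and 16.99% in shTRIM21 and 31.0%, 14.7% and 36.9% in shControl, so shControl replicates 1 and 3 stood apart from the rest in this share. Levels are given below as CPM, counts scaled to the size of each library. As in any bulk sample, fewer cells with a transcript and less of it per cell cannot be told apart.

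SEPTIN2 lies on chromosome 2 at positions 241315355 to 241354027 of GRCh38.p14, on the plus strand. HDLBP, which encodes vigilin, an RNA-binding protein with many KH domains, runs the other way from 241227291 to 241315672, so the 2 annotated genes overlap by 318 bases at their 5′ ends. RefSeq lists 3 start windows for SEPTIN2 and 4 for HDLBP, each from 250 bases before to 50 bases after a start. Relative to the first SEPTIN2 start, the other SEPTIN2 starts lie at 570 and 823 bases, and the nearest HDLBP starts at -125 and 317 bases. The first 2 SEPTIN2 windows and the HDLBP window that faces the first of them are printed because each overlaps a window of the other gene. The 318 shared bases run from the first SEPTIN2 start to the HDLBP start at 317 bases, whose window is not printed. Reads from these shared bases could belong to either gene, and the second SEPTIN2 start lies outside them. The SEPTIN8 window is printed for comparison with another septin that differed between the groups. Sequences are RefSeq's on GRCh38.p14, 5′ to 3′ on the strand of the gene, and capitals mark matches to the motifs named after them.

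SEPTIN2, first window, chr2:241315105-241315404, plus strand: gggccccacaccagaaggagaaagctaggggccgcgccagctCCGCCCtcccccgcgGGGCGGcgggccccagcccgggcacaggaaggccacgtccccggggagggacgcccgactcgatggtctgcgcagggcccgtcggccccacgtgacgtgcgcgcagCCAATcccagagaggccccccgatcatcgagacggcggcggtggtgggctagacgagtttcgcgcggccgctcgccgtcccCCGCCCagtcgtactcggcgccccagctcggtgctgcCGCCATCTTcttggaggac
SEPTIN2, second window, chr2:241315675-241315974, plus strand: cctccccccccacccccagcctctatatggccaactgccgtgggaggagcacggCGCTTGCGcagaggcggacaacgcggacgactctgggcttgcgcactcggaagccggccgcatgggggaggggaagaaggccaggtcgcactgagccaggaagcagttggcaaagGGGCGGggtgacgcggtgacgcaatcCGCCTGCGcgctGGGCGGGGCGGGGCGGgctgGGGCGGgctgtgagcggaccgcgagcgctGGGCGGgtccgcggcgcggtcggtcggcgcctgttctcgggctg
HDLBP, second window, chr2:241315181-241315480, minus strand: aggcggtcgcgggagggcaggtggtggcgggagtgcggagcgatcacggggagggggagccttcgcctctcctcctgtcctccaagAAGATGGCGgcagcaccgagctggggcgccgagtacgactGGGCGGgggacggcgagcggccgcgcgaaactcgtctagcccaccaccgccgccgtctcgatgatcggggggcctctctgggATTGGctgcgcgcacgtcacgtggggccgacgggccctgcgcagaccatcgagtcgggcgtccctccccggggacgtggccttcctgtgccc
SEPTIN8, first window, chr5:132777190-132777489, minus strand: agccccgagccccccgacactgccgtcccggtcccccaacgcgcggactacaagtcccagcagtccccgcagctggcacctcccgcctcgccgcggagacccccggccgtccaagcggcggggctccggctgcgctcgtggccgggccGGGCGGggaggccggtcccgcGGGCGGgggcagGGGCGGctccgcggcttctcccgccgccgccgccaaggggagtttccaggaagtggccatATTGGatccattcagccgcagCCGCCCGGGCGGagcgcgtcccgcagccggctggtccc

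The first SEPTIN2 window and the second HDLBP window share 224 bases, read on opposite strands, and the second SEPTIN2 window shares 248 bases with the first HDLBP window. The motifs searched on both strands were the GC box GGGCGG, the CCAAT box CCAAT, the core CGCANGCG of NRF1 sites and the YY1-type word AAGATGGCG, and GC boxes can overlap each other. Of 35116 promoter windows in the table, 44.95% held the GC box, 34.61% the CCAAT box, 10.04% the NRF1 core and 1.748% the YY1-type word. The first SEPTIN2 window held 3 GC boxes, 1 CCAAT box and 1 YY1-type word, and its HDLBP counterpart held 1 of each of these. The second SEPTIN2 window held 6 GC boxes and 2 NRF1 cores, and the SEPTIN8 window held 5 GC boxes and 1 CCAAT box. All 4 printed windows are rich in the dinucleotide CG, with 38, 37, 38 and 41 copies in the order printed. A match of letters is a description of the window and not a measured binding site. Windows for SEPTIN3 and SEPTIN5 were not used here.

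**Figure D1:**
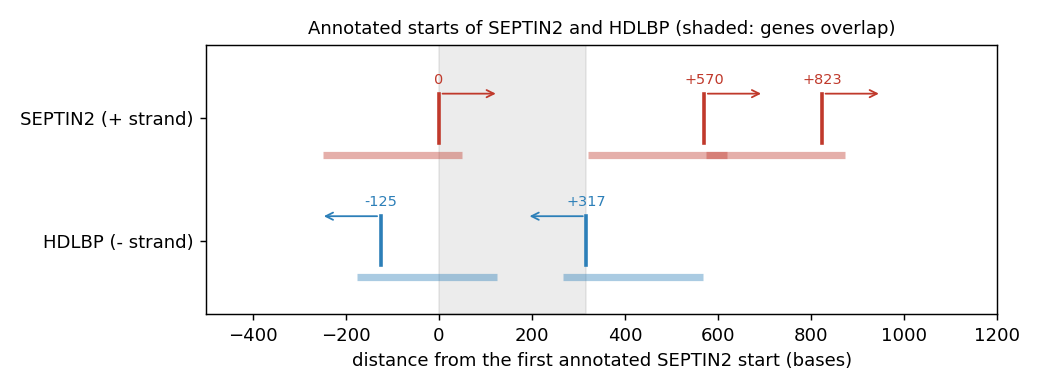
Map of the annotated transcription starts of SEPTIN2 and HDLBP around the first SEPTIN2 start; the x axis is the distance in bases and the arrows give the direction of transcription, pale bars the promoter windows and shading the overlap of the genes. SEPTIN2 starts lie at 0, 570 and 823 bases, and the nearest HDLBP starts lie at -125 and 317 bases.

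Among the 9 septins, 3 were called higher in shTRIM21 (SEPTIN2, SEPTIN3 and SEPTIN8), 2 were called lower (SEPTIN9 and SEPTIN11) and 4 were not called at an adjusted p under 0.05. Over all tested genes, 20.8% were called, 9.77% higher and 11.0% lower, and nothing is read from setting the septins against these shares because the genes were picked from this contrast. The median log2 fold change of the 9 septins was 0.019, beside 0.0054 over all tested genes. Both genes called lower lost that call under upper-quartile scaling and with library sizes alone. All 9 septins passed the filter on low counts. The groups did not overlap in CPM for 6 of them, where 37.7% of all tested genes had groups that did not overlap.

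**Figure D2:**
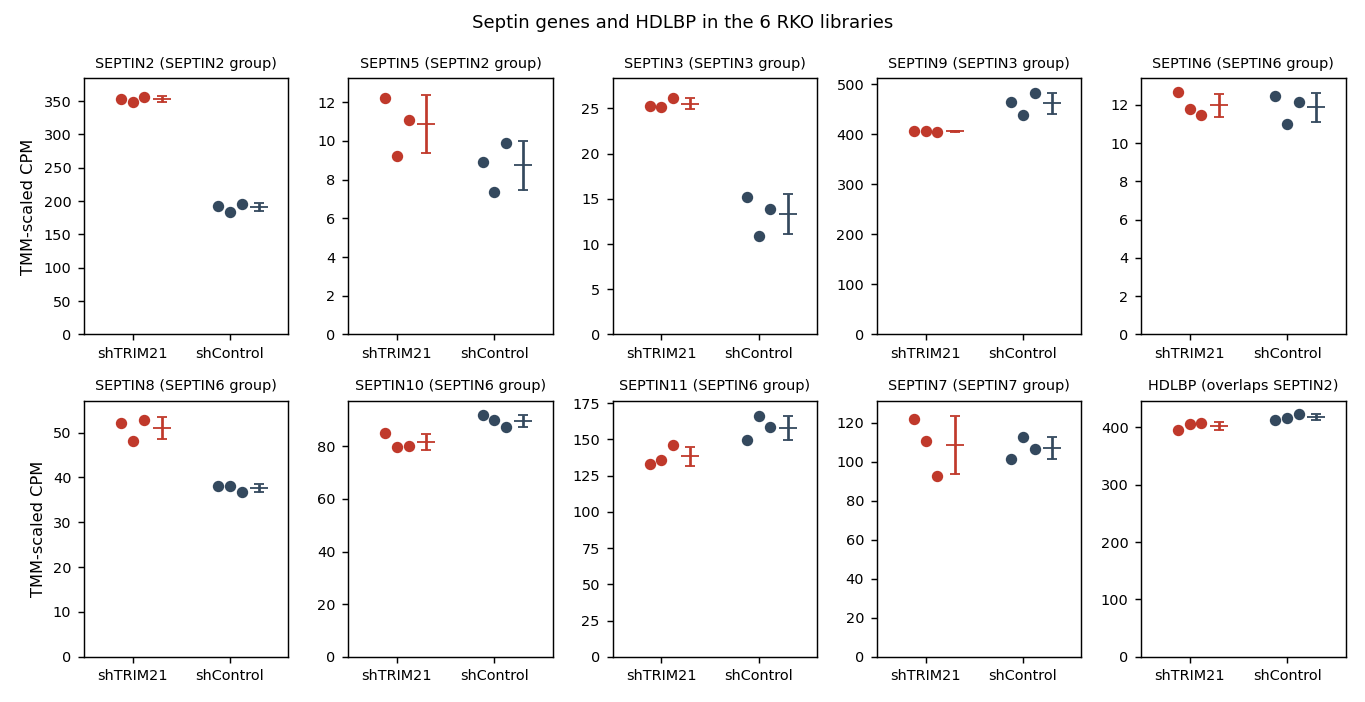
Level of each of the 9 septins and HDLBP in CPM in the 3 shTRIM21 and the 3 shControl libraries; the y axis is the TMM-scaled CPM, points are libraries, and the horizontal marks with error bars are means ± SD. SEPTIN2 lies between 349 and 357 CPM in shTRIM21 and between 184 and 196 CPM in shControl, while SEPTIN5, SEPTIN6 and SEPTIN7 overlap between the groups.

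In the SEPTIN2 group, SEPTIN2 and SEPTIN5 were in the set. SEPTIN2, which caps the rods and is needed for cytokinesis in mammalian cells, had 13262, 13671 and 13508 counts in the shTRIM21 libraries, against 7256, 6759 and 7084 counts in the shControl libraries. Scaled, these were 353, 349 and 357 CPM in shTRIM21 (mean 353 ± 3.94, SD, n = 3) and 192, 184 and 196 CPM in shControl (mean 191 ± 5.99, SD, n = 3). The groups were far apart relative to the spread within them. SEPTIN2 rose 1.85-fold (log2 0.89, SE 0.050, 95% interval 0.785 to 0.996). It was called under all 15 alternative settings tried, with log2 fold changes between 0.86 and 1.11. The settings refit the same libraries or a part of them. For SEPTIN2 and the other septins they show the dependence on processing and give no independent support.

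HDLBP, which shares the start region with SEPTIN2, had 14806, 15911 and 15421 counts in shTRIM21 and 15575, 15306 and 15340 counts in shControl. In CPM it stood at 395, 406 and 407 in shTRIM21 and at 413, 416 and 423 in shControl. The shTRIM21 values were below the shControl values in all libraries, but by little, and HDLBP was not called (log2 -0.05, SE 0.049, 95% interval -0.16 to 0.05, adjusted p = 0.50, edgeR's quasi-likelihood test). For every 100 HDLBP reads, there were 89.6, 85.9 and 87.6 SEPTIN2 reads in the shTRIM21 libraries, against 46.6, 44.2 and 46.2 in the shControl libraries. This ratio, taken within each library, needs no scaling between libraries. Whether the counting used strand is not given in the sources used here, so reads from the 318 shared bases cannot be assigned to one of these genes. ANO7, the next gene that overlaps the HDLBP span in the annotation, had a log2 fold change of -0.03 (SE 0.34) and was not called.

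SEPTIN5, best known in neurons, where it binds syntaxin and synaptic vesicles, was a low-level member with 458, 362 and 420 counts in shTRIM21 and 336, 271 and 359 counts in shControl. Its scaled levels were 12.2, 9.24 and 11.1 CPM in shTRIM21 and 8.90, 7.37 and 9.91 CPM in shControl. The groups overlapped, and SEPTIN5 was not called (log2 0.31, SE 0.13, 95% interval 0.04 to 0.59). SEPTIN5 lies on chromosome 22 at 19714503 to 19723319 and shares 6100 bases with the readthrough row SEPT5-GP1BB, whose counts were 99.2% to 102% of the summed counts of SEPTIN5 and GP1BB in every library. The readthrough row therefore carries no measurement of its own. It was not called (log2 0.29, SE 0.10), which is no result separate from those of SEPTIN5 and GP1BB. With SEPTIN1 and SEPTIN4 lower still, the SEPTIN2 group was thus represented in these cells almost wholly by SEPTIN2.

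In the SEPTIN3 group, SEPTIN3 rose and, under the reported scaling, SEPTIN9 fell. SEPTIN3, a brain-enriched septin on chromosome 22 at 41969443 to 41998221, had 947, 985 and 992 counts in shTRIM21, against 575, 402 and 502 counts in shControl. Its levels of 25.2, 25.1 and 26.2 CPM in shTRIM21 (mean 25.5 ± 0.588, SD, n = 3) were all above the levels of 15.2, 10.9 and 13.9 CPM in shControl (mean 13.3 ± 2.19, SD, n = 3). SEPTIN3 rose 1.91-fold (log2 0.94, SE 0.10, 95% interval 0.71 to 1.16). It overlaps no other annotated gene, and it was called under all 15 alternatives, between 0.81 and 1.22 on the log2 scale.

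SEPTIN9, the central subunit of the longer rod and known in clinical testing because its gene is methylated in colorectal cancers, had 15251, 15934 and 15327 counts in shTRIM21 and 17517, 16161 and 17482 counts in shControl. In CPM these were 406, 407 and 405 in shTRIM21 (mean 406 ± 0.986, SD, n = 3) and 464, 440 and 483 in shControl (mean 462 ± 21.5, SD, n = 3). The groups did not overlap, and SEPTIN9 fell by 12.1% (log2 -0.19, SE 0.053, 95% interval -0.30 to -0.07). The call was lost under upper-quartile scaling (-0.15), without shTRIM21 replicate 2 (-0.20), when shControl replicate 3 was left out (-0.16) and when both shControl replicates 1 and 3 were (-0.12). With library sizes alone, where ribosomal RNA reads count toward depth, the value was 0.03 and was not called. For every 100 SEPTIN9 reads there were 6.21, 6.18 and 6.47 SEPTIN3 reads in shTRIM21, against 3.28, 2.49 and 2.87 in shControl. The gene shares 399 bases with SEPTIN9-DT, which had at most 10 counts in any library. SEPTIN9 was by far the more abundant of the pair in every library.

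The SEPTIN6 group held 4 members, of which 1 was called higher, 1 lower and 2 were not called. SEPTIN8 had 1954, 1885 and 1998 counts in shTRIM21 and 1441, 1399 and 1329 counts in shControl. Its levels were 52.1, 48.1 and 52.8 CPM in shTRIM21 (mean 51.0 ± 2.51, SD, n = 3) and 38.2, 38.1 and 36.7 CPM in shControl (mean 37.6 ± 0.833, SD, n = 3). Every shTRIM21 library was above every shControl library, and SEPTIN8 rose 1.35-fold (log2 0.44, SE 0.062, 95% interval 0.31 to 0.57), with calls under all 15 alternatives between 0.41 and 0.65. The gene lies on chromosome 5 at 132750819 to 132780083 and shares 5247 bases with CCNI2, an atypical cyclin gene that averaged 0.472 CPM in shTRIM21 and 0.289 CPM in shControl. CCNI2 was therefore measured at levels far below the difference in SEPTIN8.

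SEPTIN11, known in neurons for a part in dendritic spines and inhibitory synapses, had 5000, 5303 and 5524 counts in shTRIM21 and 5642, 6109 and 5734 counts in shControl. Scaled levels were 133, 135 and 146 CPM in shTRIM21 (mean 138 ± 6.80, SD, n = 3) and 149, 166 and 158 CPM in shControl (mean 158 ± 8.37, SD, n = 3). The groups did not overlap but nearly touched, and SEPTIN11 fell by 12.5% (log2 -0.19, SE 0.057, 95% interval -0.31 to -0.07). This call was lost under upper-quartile scaling (-0.15), with library sizes alone (0.01), and when shTRIM21 replicate 1 (-0.17), shTRIM21 replicate 2 (-0.19), shControl replicate 2 (-0.16) or shControl replicate 3 (-0.20) was left out.

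SEPTIN10, a close paralog of SEPTIN6, SEPTIN8 and SEPTIN11, had levels of 85.3, 79.8 and 80.0 CPM in shTRIM21 and 91.8, 90.1 and 87.4 CPM in shControl. The groups did not overlap, yet SEPTIN10 was not called (log2 -0.14, SE 0.054, 95% interval -0.25 to -0.02). All 71168 bases of SEPTIN10, at 109542799 to 109613966 on chromosome 2, lie within the annotated span of RANBP2, a nucleoporin gene that averaged 158 CPM in both groups and was not called (log2 -0.00, SE 0.061, adjusted p = 0.97, edgeR's quasi-likelihood test). SEPTIN6, a gene of the X chromosome known as a fusion partner of KMT2A in leukaemia, had 12.7, 11.8 and 11.5 CPM in shTRIM21 and 12.5, 10.99 and 12.1 CPM in shControl. SEPTIN6 values overlapped and the difference was not called (log2 0.01, SE 0.094, 95% interval -0.19 to 0.21). Within libraries, there were 39.1, 35.5 and 36.2 SEPTIN8 reads for every 100 SEPTIN11 reads in shTRIM21, against 25.5, 22.9 and 23.2 in shControl.

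SEPTIN7, the sole member of its group and a subunit that both rod lengths contain, had 4586, 4344 and 3505 counts in shTRIM21 and 3840, 4153 and 3865 counts in shControl. Its levels were 122, 111 and 92.6 CPM in shTRIM21 and 102, 113 and 107 CPM in shControl. SEPTIN7 was the member with the widest spread within shTRIM21 in CPM, the groups overlapped, and it was not called (log2 0.02, SE 0.081, 95% interval -0.15 to 0.19). SEPTIN7P2, a pseudogene copy of SEPTIN7, had 77, 109 and 112 counts in shTRIM21 and 72, 92 and 99 counts in shControl and was not called (log2 0.13, SE 0.21, adjusted p = 0.72, edgeR's quasi-likelihood test). How reads were split between SEPTIN7 and its copies is not given in the sources used here, so SEPTIN7 counts are uncertain to that extent.

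**Figure D3:**
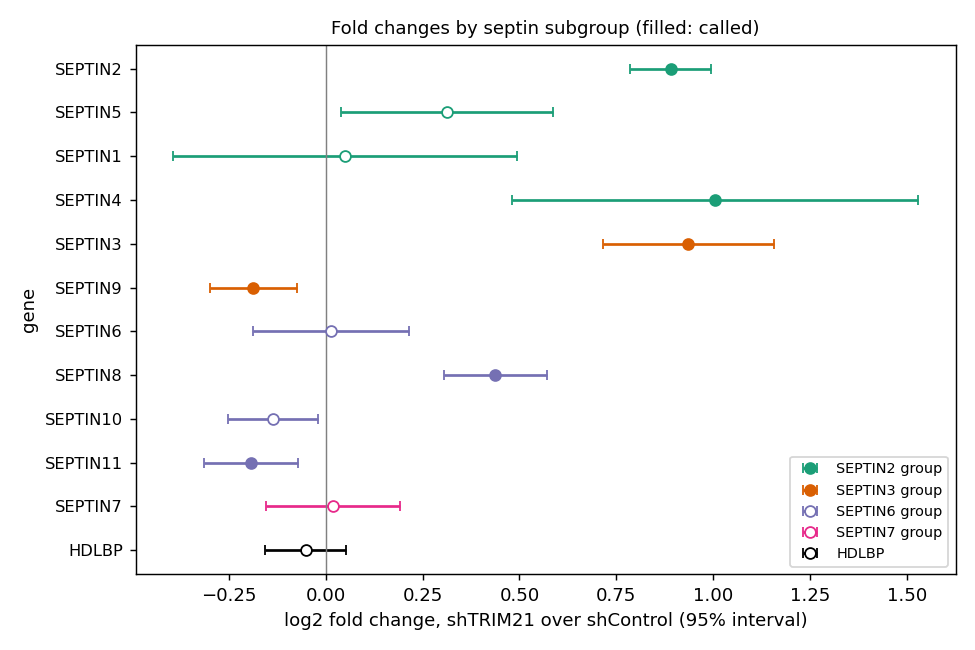
Log2 fold change of shTRIM21 over shControl for the 9 septins, SEPTIN1, SEPTIN4 and HDLBP, coloured by subgroup, with 95% intervals from edgeR's quasi-likelihood fit. SEPTIN2, SEPTIN3 and SEPTIN8 lie to the right of 0 at 0.89, 0.94 and 0.44, SEPTIN9 and SEPTIN11 lie at -0.19, and HDLBP lies at -0.05 with an interval that includes 0. Filled points were called.

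Levels were compared between septins per kilobase of the longest GENCODE 29 transcript, a length that may differ from the one expressed in RKO cells. SEPTIN2 stood at 95.4 ± 1.06 CPM per kb in shTRIM21 and at 51.5 ± 1.62 in shControl (SD, n = 3 each), and SEPTIN9 stood at 91.2 ± 0.221 in shTRIM21 and at 104 ± 4.82 in shControl. The order of these 2 genes thus differed between the groups on this scale. With the median transcript length in place of the longest, SEPTIN9 ranked 1 and SEPTIN2 ranked 2 in both groups, and SEPTIN11 came before SEPTIN10, which ranked 5 in shTRIM21, behind SEPTIN7, and 4 in shControl. The order of SEPTIN3, SEPTIN5 and SEPTIN6 in shControl also changed with that length.

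With the longest transcript, next in order came SEPTIN10 at 26.4 ± 1.003 CPM per kb in shTRIM21 and 29.04 ± 0.724 in shControl, and SEPTIN11 at 24.7 ± 1.21 in shTRIM21 and 28.2 ± 1.497 in shControl. The ranges of SEPTIN10 and SEPTIN11 overlapped in both groups, so these neighbours did not differ beyond their spread. SEPTIN7 stood at 15.6 ± 2.15 in shTRIM21 and 15.4 ± 0.812 in shControl, and SEPTIN8 at 11.6 ± 0.572 in shTRIM21 and 8.57 ± 0.190 in shControl. The 3 lowest were SEPTIN3 at 5.49 ± 0.127 in shTRIM21 and 2.87 ± 0.472 in shControl, SEPTIN5 at 4.61 ± 0.636 in shTRIM21 and 3.71 ± 0.543 in shControl, and SEPTIN6 at 2.55 ± 0.130 in shTRIM21 and 2.53 ± 0.164 in shControl. All errors here are SDs over 3 libraries.

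**Figure D4:**
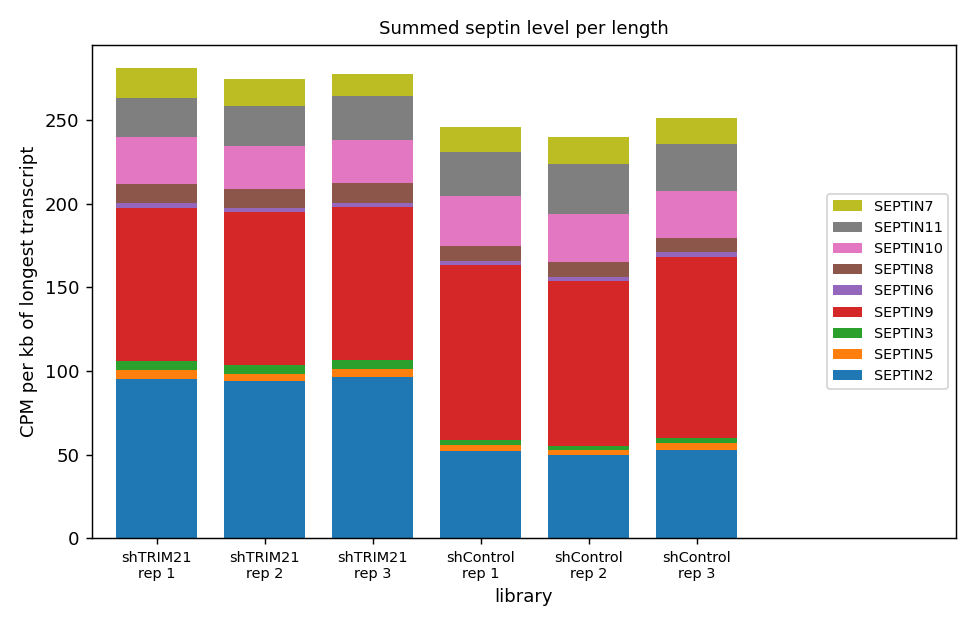
Stacked levels of the 9 septins in CPM per kb of the longest transcript (y axis) in each of the 3 shTRIM21 and 3 shControl libraries (x axis); each coloured segment is 1 gene. SEPTIN2 and SEPTIN9 stand well above the other septins in both groups, with means of 95.4 and 91.2 CPM per kb in shTRIM21 and 51.5 and 104 CPM per kb in shControl.

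The makeup of the summed septin level was taken per kilobase within each library. SEPTIN2-group transcripts took 35.8%, 35.8% and 36.5% of it in the shTRIM21 libraries, against 22.7%, 22.0% and 22.7% in the shControl libraries, a difference of 13.6 percentage points. The SEPTIN3 group took 34.8% ± 0.419 in shTRIM21 and 43.4% ± 1.14 in shControl, and the SEPTIN6 group took 23.5% ± 0.408 in shTRIM21 and 27.9% ± 1.14 in shControl (SD, n = 3 each). SEPTIN7 took 5.62% ± 0.747 in shTRIM21 and 6.28% ± 0.433 in shControl. Shares sum to the whole, so a larger share of one group lowers the others without any change of their own levels.

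The summed level of all 9 septins was 1203, 1176 and 1182 CPM in shTRIM21 and 1074, 1060 and 1103 CPM in shControl. Leaving SEPTIN2 out, the sum was 834 ± 13.5 CPM in shTRIM21 and 889 ± 16.6 CPM in shControl (SD, n = 3 each). With TMM scaling the higher total in shTRIM21 was thus carried by SEPTIN2, and without it the sum was lower in shTRIM21. This last direction rests on the scaling, since SEPTIN9, its largest part, was not lower with library sizes alone. That scaling put the median log2 fold change of all tested genes at 0.22. With TMM scaling but ribosomal RNA rows left out, SEPTIN9 was at -0.19 on the log2 scale and was called lower. For every 100 SEPTIN9 reads there were 87.0, 85.8 and 88.1 SEPTIN2 reads in shTRIM21, against 41.4, 41.8 and 40.5 in shControl. For every 100 SEPTIN7 reads there were 289, 315 and 385 SEPTIN2 reads in shTRIM21, against 189, 163 and 183 in shControl.

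Of the other 4 septin genes, SEPTIN1 and SEPTIN4 passed the filter on low counts. SEPTIN4, whose ARTS isoform is known to promote apoptosis by binding XIAP, had 144, 103 and 139 counts in shTRIM21 and 45, 85 and 56 counts in shControl. SEPTIN4 rose 2.01-fold (log2 1.004, SE 0.25, 95% interval 0.48 to 1.53, adjusted p = 0.0096, edgeR's quasi-likelihood test), higher in 3 of 3 shTRIM21 libraries than in any shControl library. Its antisense gene SEPTIN4-AS1 spans all 24073 bases of SEPTIN4 on chromosome 17 and also rose, with 14, 13 and 11 counts in shTRIM21 and 3, 2 and 3 counts in shControl (log2 2.15, SE 0.56, adjusted p = 0.013, edgeR's quasi-likelihood test). With the use of strand not given, the reads of these 2 genes cannot be told apart.

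SEPTIN1, of the SEPTIN2 group and known from lymphocytes, had 89, 74 and 80 counts in shTRIM21 and 72, 83 and 72 counts in shControl and was not called (log2 0.05, SE 0.21). ZNF48, which shares 4504 bases with SEPTIN1, had many more counts, 950, 1057 and 1024 in shTRIM21 and 927, 942 and 903 in shControl, and was not called (log2 0.08, SE 0.070, adjusted p = 0.46, edgeR's quasi-likelihood test). SEPTIN14, known from testis, had 4, 42 and 18 counts in shTRIM21 and 11, 0 and 1 counts in shControl and did not pass the filter. SEPTIN12, also a testis septin, was listed at 0 in all 6 libraries.

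Genes of proteins that work with septins were taken from 4 lists, chosen with earlier results of these data known. Nothing is therefore read from setting their counts against the shares of all tested genes. The genes named from each list were picked by their results in this same comparison, so their directions and adjusted p-values are a description. In these lists 9 genes were called lower with the reported scaling, 9 without ribosomal RNA rows and 0 with library sizes alone. With library sizes alone the median log2 fold change of all tested genes was 0.22. Of 6 genes for CDC42 and the Borg proteins, CDC42 effectors that bind septins, 2 fell and 0 rose, where 11.0% of all tested genes fell and 9.77% rose, and the median log2 fold change was 0.02, beside 0.0054 over all tested genes. CDC42EP2 fell by 0.41 on the log2 scale (SE 0.072, adjusted p = 0.0011) and CDC42EP1 fell by 0.21 (SE 0.054, adjusted p = 0.014), while CDC42 and CDC42EP4 had log2 values of 0.08 and 0.09 and were not called (all by edgeR's quasi-likelihood test). Both Borg genes that passed the test were lower in shTRIM21.

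Of 19 genes for the contractile ring and cytokinesis, 7 fell and 1 rose, where 11.0% of all tested genes fell and 9.77% rose, and the median log2 fold change was -0.10, beside 0.0054 over all tested genes. This list too was chosen with earlier results of these data known, so its counts beside these shares are a description. The 4 of its genes with the smallest p-values, picked in this same comparison, all fell, which is a description. They were ROCK2, a kinase that activates myosin, by 0.50 (SE 0.058, adjusted p = 2.35e-05), DIAPH1, a formin that nucleates actin filaments, by 0.28 (SE 0.048, adjusted p = 0.000795), the formin DIAPH3 by 0.35 (SE 0.070, adjusted p = 0.0028), and ANLN, the anillin that links septins to actin and myosin at the furrow, by 0.25 (SE 0.052, adjusted p = 0.0034), all on the log2 scale and by edgeR's quasi-likelihood test. The gene that rose, named after its value was seen, was MYL9, a myosin light chain (log2 0.29, SE 0.066, adjusted p = 0.0066, edgeR's quasi-likelihood test). AURKB, MYL12A and KIF20A, also named after their values were seen, were the other 3 that fell.

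Among 9 exocyst genes, whose complex tethers vesicles at septin-marked membrane, 1 rose and 0 fell. Over all tested genes, 9.77% rose and 11.0% fell. The median log2 fold change of the exocyst genes was 0.12, beside 0.0054 over all tested genes. EXOC3 rose (log2 0.20, SE 0.064, adjusted p = 0.041), whereas EXOC5, EXOC4 and EXOC6B had log2 values of -0.17, 0.18 and 0.15 and were not called by edgeR's quasi-likelihood test. Of 5 genes for store-operated calcium entry, which septins are known to regulate at the plasma membrane, 1 rose and 0 fell. Over all tested genes, 20.8% were called. The median log2 fold change of these 5 genes was 0.17, beside 0.0054 over all tested genes. ORAI2, a calcium channel subunit, rose (log2 0.27, SE 0.080, adjusted p = 0.025, edgeR's quasi-likelihood test), and ORAI3, STIM2 and ORAI1 had log2 values of 0.43, 0.17 and -0.19 and were not called.

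The genes whose pattern over the 6 libraries was most like that of SEPTIN2 were sought among 11096 genes that averaged 5 CPM or more. Likeness was the root mean square difference of log2 (CPM + 0.5) after centring each gene on its own mean. The closest were FSD1 at 0.044, FNDC10 at 0.044 and SYNPO at 0.046 on this log2 scale. FSD1 averaged 18.7 CPM in shTRIM21 and 9.76 CPM in shControl, FNDC10 12.0 CPM in shTRIM21 and 6.45 CPM in shControl, and SYNPO 15.5 CPM in shTRIM21 and 7.98 CPM in shControl. All 3 were thus expressed far below SEPTIN2. Their like ratio between groups follows from the search, which picked genes by likeness over these same libraries.

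Markers of cell types were summed in CPM to check the labelled line. The 5 epithelial markers summed to between 4604 and 4847 CPM in shTRIM21 and between 5936 and 6602 CPM in shControl. CDH1 was called higher, KRT8, KRT18 and KRT19 were called lower and EPCAM was not called by edgeR's quasi-likelihood test. The 4 colon markers summed to between 31.4 and 34.5 CPM in shTRIM21 and between 32.5 and 34.6 CPM in shControl, with CDX1 and LGALS4 listed at 0. Sums ranged over 5.79 to 6.64 CPM in shTRIM21 and 7.09 to 8.13 CPM in shControl for 4 leukocyte markers, with CD3E listed at 0. Most of the leukocyte sum was CD68, a lysosomal protein of macrophages, at 6.08 CPM in shTRIM21 and 7.52 CPM in shControl, which was not called (log2 -0.31, SE 0.12, adjusted p = 0.081, edgeR's quasi-likelihood test). For 3 endothelial markers they ranged over 0.264 to 0.720 CPM in shTRIM21 and 0.272 to 0.524 CPM in shControl, with CDH5 listed at 0. For 5 fibroblast markers they ranged over 10.4 to 10.8 CPM in shTRIM21 and 6.12 to 9.19 CPM in shControl, with DCN and LUM listed at 0. Most of the fibroblast sum was COL1A1, a collagen chain, at 10.2 CPM in shTRIM21 and 7.88 CPM in shControl, which was not called (log2 0.37, SE 0.13, adjusted p = 0.059, edgeR's quasi-likelihood test), and COL1A2 had at most 1 count in any library.

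Because SEPTIN3 and SEPTIN5 are best known from neurons, 5 neuronal markers were summed as well. They came to between 51.8 and 60.4 CPM in shTRIM21 and between 52.6 and 58.7 CPM in shControl, with STMN2 listed at 0. Most of that sum was SYT1, and 0 of the 3 neuronal markers tested were called by edgeR's quasi-likelihood test. The sums of the epithelial, leukocyte and fibroblast markers did not overlap between the groups, where 37.7% of all tested genes had groups that did not overlap. The leukocyte and fibroblast sums were mostly CD68 and COL1A1, neither of which was called. The part of these markers in the septin values was not tested.

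**Figure D5:**
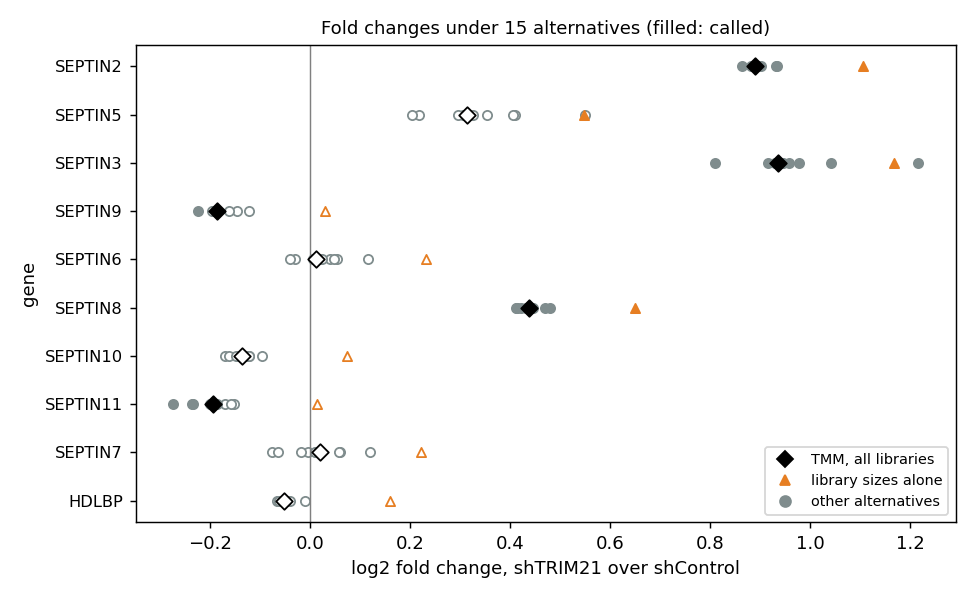
Log2 fold change of shTRIM21 over shControl for each septin and HDLBP under the reported fit and the 15 alternative settings; each point is a setting, filled where the gene was called, and triangles mark scaling by library sizes alone. SEPTIN2, SEPTIN3 and SEPTIN8 stay above 0 in every setting, with lowest values of 0.86, 0.81 and 0.41, while SEPTIN9 and SEPTIN11 reach 0.03 and 0.01 when libraries are scaled by their sizes alone.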

How the data were processed

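RNA of RKO cells, depleted of ribosomal RNA, was sequenced in 3 shTRIM21 and 3 shControl libraries, grouped by sample title. The files the authors deposited hold raw counts, with no normalization, for each gene symbol. Per the submitters' processing notes, TopHat2, limma 3.52.2, edgeR 3.38.1 and the genome build hg38 were involved, with no role given. The counting program is not given in the sources used here, nor are its annotation and any use of strand. Overlapping, antisense or near-identical genes may therefore share reads.

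Of 28278 rows, 7790 were at 0 in all libraries. Genes were filtered by edgeR's filterByExpr (count minimum 10, total minimum 15); the 15131 genes left were TMM-scaled and compared with edgeR 4.0.16 in R 4.3.3. The quasi-likelihood F test had group as its only term, p-values were adjusted over all tested genes by the Benjamini-Hochberg method, and genes under 0.05 were called. Standard errors are log2 fold changes over the root of F. The test was checked on simulated data. CPM uses TMM-scaled library sizes.

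The members and lists were chosen with earlier results of these data known. Named genes are all septins, HDLBP, TRIM21, genes overlapping a member, up to 4 genes per partner list with the smallest p-values, and the 3 genes most like SEPTIN2. RefSeq tables of GRCh38.p14 gave promoters and positions, and GENCODE 29 gave lengths and 3′ UTRs. Alternatives were DESeq2 1.42.0, other scalings and filters, a replicate block, and leaving out libraries.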

Additional observations from a re-analysis of the deposited data

How the results depend on the processing

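The calls of SEPTIN2, SEPTIN3 and SEPTIN8 held under all 15 alternatives, and those of SEPTIN9 and SEPTIN11 under 10 and 9 of them. With library sizes alone, 1969 genes were called, 0 septins and 0 partner genes were called lower, the median of all tested genes was 0.22 and 93.0% of calls were higher (47.0% in the reported fit). SEPTIN9, SEPTIN10, SEPTIN11 and HDLBP then had log2 values of 0.031, 0.074, 0.015 and 0.16, below that median, and SEPTIN5 was called (0.55). Under upper-quartile scaling 0 septins were called lower and 62.1% of calls were higher. With ribosomal RNA rows left out, 3244 genes were called, and 2 septins and 9 partner genes were called lower. Without shControl replicates 1 and 3, the libraries richest in ribosomal RNA, 1958 genes, 1 septin lower and 5 partner genes lower were called, and SEPTIN7 was at -0.064; the lone control was assumed to vary like the shTRIM21 libraries. Leaving out 1 library at a time, 1844 to 2592 genes were called, 3 septins higher, 0 to 2 septins lower and 1 to 3 partner genes higher, while SEPTIN6 ranged over -0.041 to 0.048 and SEPTIN7 over -0.076 to 0.12. With the median transcript length, the SEPTIN2-group share differed by 12.8 percentage points. The causes were not tested.

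Same-numbered libraries did not deviate together (r of -0.01, -0.01 and -0.07 across genes), so the numbers were not taken as pairs; a fit with the replicate block called 2905 genes, with the same calls for the septins. The interval of a gene with few counts, such as SEPTIN5, is wide at this depth.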

Other observations

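The 7-letter word GTGTCAC, taken from earlier results on these data, was counted in the longest GENCODE 29 3′ UTR of each gene. SEPTIN2 holds 2 copies in 2090 bases, and SEPTIN3, SEPTIN8 and SEPTIN7 hold 1 copy each in 3465, 2820 and 2812 bases. SEPTIN5, SEPTIN6, SEPTIN9, SEPTIN10, SEPTIN11 and HDLBP hold 0. SEPTIN4, which was called higher, also holds 0, in 994 bases. The word was thus present in SEPTIN2, SEPTIN3 and SEPTIN8 among the septins called higher, absent from SEPTIN4, and present in SEPTIN7, which was not called. Of 12915 tested genes with a 3′ UTR, 10.8% held the word. The share was 20.9% of genes called higher, 7.97% of genes called lower and 9.88% of genes not called. Median 3′ UTR lengths were 1808, 1636 and 1552 bases in that order. Word and members were both selected on the same comparison, so the match in the septins and these shares are a description and support nothing. The first site of each is printed with its flanks, the word in capitals, 5′ to 3′.

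SEPTIN2: atttcattgctGTGTCACactctgtgttt
SEPTIN3: tgtcgtgttcaGTGTCACaaagctaccac
SEPTIN8: ttccatttacaGTGTCACtattccctgac
SEPTIN7: tcattagctggGTGTCACattaccacctg

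No hairpin sequence was used here, and the part of the word in the septin values was not tested.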
